A study of Homo sapiens with 2 samples.

Results

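The 9 genes EZH1, EZH2, EED, SUZ12, RNF2, BMI1, CBX2, CBX7 and CBX8 encode subunits of the Polycomb repressive complexes PRC1 and PRC2, and their RNA levels were examined in untreated HEK293T cells. They were chosen by name, and each was matched to a single row of the gene tables among 57736 genes. Poly(A)+ RNA of the wild type line was sequenced in 1 group with 2 replicates, so no condition could be compared with another. HEK293T came from human embryonic kidney and expresses the large T antigen of SV40, and it is a culture of a single transformed line rather than a tissue. The labels do not say whether the replicates came from separate cultures, so the spread between them may be technical. The estimated read counts added up to 10593491 in replicate 1 and 10104118 in replicate 2. The labelled tissue was kidney, and of 12 marker genes of mature or developing kidney cells only LRP2 (TPM of 8.28 and 9.96) and PAX2 (4.34 and 2.47) reached a TPM of 1 in both replicates, while 6 had no counts in either.

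Polycomb proteins keep genes silent through chemical marks on histones, and they are best known for holding developmental genes off in cells where these genes are not needed. PRC2 attaches methyl groups to a lysine of histone H3 through EZH2 or its relative EZH1, which work only when bound to EED and SUZ12. PRC1 attaches ubiquitin to another histone through RNF2 or RING1 paired with a PCGF protein such as BMI1. In canonical PRC1 a CBX protein binds the methyl mark made by PRC2, whereas variant PRC1 holds RYBP or YAF2 in its place.

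Reads of 50 bases cannot always tell these genes from their neighbours and copies, and the sequences that matter most for the values below are those of BMI1 and SUZ12. The exons of BMI1, on chromosome 10 of GRCh37 (chr10:22610028-22620413, plus strand), share 1000 of 4395 exonic bases with those of COMMD3-BMI1, an annotated read-through gene that begins in COMMD3 and continues into BMI1. COMMD3 ends 792 bases before BMI1 starts. The stretches printed here are 50 bases over the join into the exon that holds the BMI1 start codon. Capitals mark the 11 bases of the upstream exon (exon 1 of BMI1, chr10:22610615-22610625, and exon 5 of COMMD3-BMI1, chr10:22607937-22607947), and lower case marks the exon that both genes use from chr10:22615360 on.
BMI1: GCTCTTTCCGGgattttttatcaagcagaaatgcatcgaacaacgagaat
COMMD3-BMI1: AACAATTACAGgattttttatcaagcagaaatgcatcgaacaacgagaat
Those bases in capitals that differ can assign a read to 1 of these genes, whereas the 39 bases that follow fit both. Some capitals are alike in both genes, among them the last, so a read that reaches only that base is not assigned by it. Of the 4579 different stretches of 50 bases in the annotated BMI1 transcripts, 953 (20.8%) were also in COMMD3-BMI1, and these made up 46.6% of the stretches of COMMD3-BMI1.

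SUZ12 lies on chromosome 17 (chr17:30264026-30328057, plus strand), and its transcribed pseudogene copy SUZ12P1 lies 1160605 bases before it on the same strand. The following stretch of coding sequence in exon 7 of SUZ12 (chr17:30302557-30302606) is the first whose only difference from SUZ12P1 (chr17:29095908-29095957) falls in its middle. The capital marks that base, which is C25T counted from the 5′ end with the SUZ12 base written first.
SUZ12: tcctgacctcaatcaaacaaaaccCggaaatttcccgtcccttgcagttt
SUZ12P1: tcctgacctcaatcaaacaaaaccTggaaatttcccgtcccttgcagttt
Among 1435 such coding stretches of 50 bases that lie within an exon of SUZ12, 219 were identical in a SUZ12P1 transcript, 177 differed at 1 base and 957 differed at more than 5 bases. Over all SUZ12 transcripts 7.70% of the stretches were also in another gene, which left 92.3% private to SUZ12. The other 7 genes shared less, from none for CBX2 and CBX8 to 2.98% for CBX7. Among the transcripts compared, their reads thus had few alternatives.

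All 9 genes were detected, which here means that both replicates had a TPM of 1 or more. TPM, the deposited abundance after scaling for transcript length and for the size of the library, allows levels of different genes to be compared. For comparison, 27.7% of all 57736 genes and 63.7% of 19391 protein-coding genes reached this level. The mean TPM of the 9 genes ran from 5.02 for CBX7 to 74.3 for BMI1 with a median of 32.1, beside a median of 21.2 over the detected protein-coding genes.

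**Figure D1:**
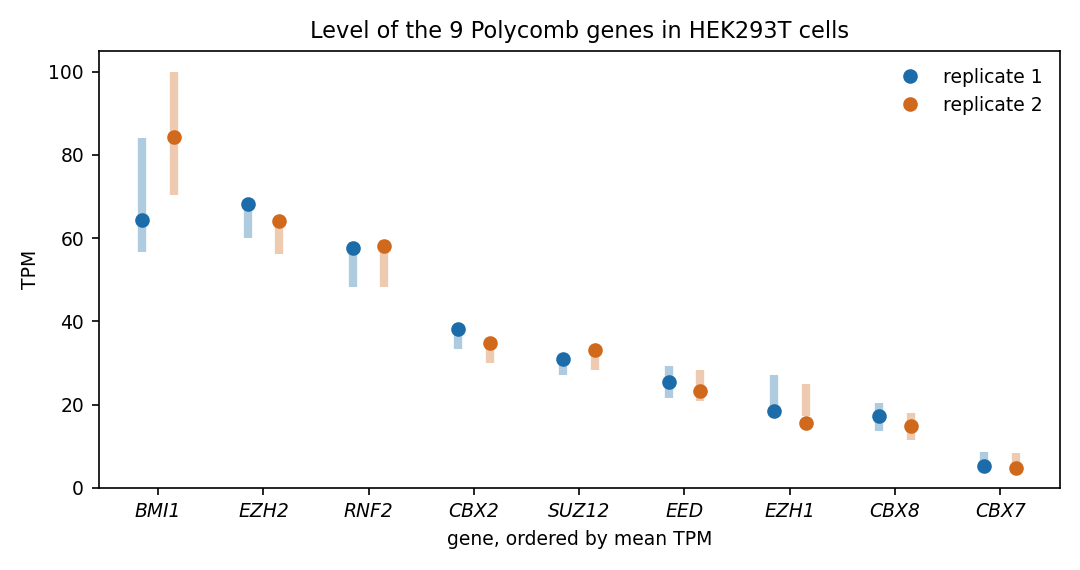
TPM (y axis) of the 9 Polycomb genes (x axis) in replicate 1 (blue) and replicate 2 (orange), with the 95% interval that RSEM deposited for each TPM as a pale bar. BMI1, EZH2 and RNF2 lay above a TPM of 57 in both replicates, CBX7 lay at 5.27 and 4.77, and both points of EZH1 lay below their own bars.

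EZH2 (chr7:148504349-148581413, minus strand), the main methyltransferase of PRC2 in dividing cells, had a TPM of 68.1 in replicate 1 and 64.1 in replicate 2 (mean 66.1 ± 2.84, SD, n = 2), from 1175.94 and 1112 estimated counts. This level was higher than that of 85.5% of detected genes. EZH1 (chr17:40852293-40897067, minus strand), its relative that is known from resting and differentiated cells, had a TPM of 18.4 and 15.5 (mean 17.0 ± 2.08) from 338 and 315 counts. The level of EZH2 was therefore 3.69 and 4.14 times that of EZH1, a mean ratio of 3.92 ± 0.313 (SD, n = 2), and the TPM ranges of these genes over the replicates did not overlap.

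Among the 9 genes, EZH1 had the largest ratio between the TPM that RSEM gives as a posterior mean and its main TPM. CBX7 came close, with 6.47 and 6.28 from the posterior mean beside a main TPM of 5.27 and 4.77. The mean length that RSEM assigned to EZH1 was 2505.8 bases in replicate 1 and 2878.51 in replicate 2. The longest annotated transcript of EZH1 has 4633. Its counts were whole numbers with a posterior SD of 0 in both replicates, so RSEM shared none of its reads with another gene. Yet its deposited TPM of 18.4 and 15.5 lay under the lower bounds of its own 95% intervals, 18.5 and 17.2, and the TPM from the posterior mean was 22.7 and 20.9. With these values EZH2 was 2.83 and 2.89 times EZH1. In counts, which are not scaled by length, the ratio was 3.48 and 3.53.

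EED (chr11:85912254-85989855, plus strand), which binds the methyl mark and activates the enzyme, had a TPM of 25.3 and 23.3 (mean 24.3 ± 1.45, n = 2) from 336 and 310 counts. SUZ12, the scaffold of PRC2, had a TPM of 30.9 and 33.2 (mean 32.1 ± 1.63, n = 2) from 964.10 and 925.47 counts. SUZ12 was 1.22 and 1.43 times EED, and EZH2 was 2.69 and 2.75 times EED. In TPM, EZH2 lay above SUZ12, SUZ12 above EED and EED above EZH1 in both replicates. The last of these steps depended on the scale, since EED was 1.37 and 1.50 times EZH1 in TPM, 1.12 and 1.17 times with the posterior mean, and 0.994 and 0.984 times in counts.

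The posterior SD of the SUZ12 count, which describes the uncertainty of sharing out reads, was 8.28 and 7.79 counts, or small beside the count itself. Its copy SUZ12P1 had 297.69 and 268.81 counts with a TPM of 43.9 and 44.9. The TPM of the pseudogene was thus above that of SUZ12, which was 0.705 and 0.740 times as high, although SUZ12 had 3.24 and 3.44 times as many counts. TPM divides by length, and the mean length assigned to SUZ12P1 was 958 and 881 bases and that of SUZ12 4228.84 and 3925.44. The other annotated copies held few or no reads. EZH2P1 had 1.06 and 0 counts, RNF2P1 had 6.59 and 5.12, and EEDP1 and BMI1P1 had 0, where up to 3 counts could have been missed at this depth by counting error alone.

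RNF2 (chr1:185014658-185071735, plus strand) is the ubiquitin ligase of most PRC1, and its TPM was 57.5 and 58.1 (mean 57.8 ± 0.375, n = 2) from 626.85 and 659.88 counts. Its TPM differed least between the replicates among the 9 genes. RING1, the alternative ligase, had a TPM of 38.5 and 31.9, so that RNF2 was 1.66 ± 0.228 times as high (SD, n = 2). RNF2 held 59.9% and 64.5% of the summed TPM of this pair.

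BMI1, the PCGF subunit known for supporting stem cell renewal, had the highest mean TPM of the 9 genes and the largest spread. Its TPM was 64.4 in replicate 1 and 84.3 in replicate 2 (mean 74.3 ± 14.1, n = 2), from 768.55 and 954.45 counts. The posterior SD of its count was 27.4 and 27.3, the largest among the 9 genes, and its 95% TPM interval ran from 56.7 to 84.1 in replicate 1 and from 70.2 to 99.9 in replicate 2. These intervals overlapped. BMI1 held 36.7% and 43.3% of the summed TPM of the 5 PCGF genes in the tables, ahead of PCGF3 with 23.6% and 18.2%. PCGF2 could not be matched to a row and was not analysed here, so these shares are of the family without it. In counts PCGF3 held 39.5% and 35.4% against 30.3% and 36.3% for BMI1, so BMI1 led in both replicates per length but in replicate 2 alone per read.

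CBX2, CBX7 and CBX8 belong to the chromobox proteins that bring canonical PRC1 to the methyl mark. CBX2 (chr17:77751947-77761782, plus strand), which also compacts chromatin, had a TPM of 38.3 and 34.7 (mean 36.5 ± 2.53, n = 2) from 1248 and 1064 counts, and its value in replicate 1 lay just above the upper bound of its own interval. CBX8 (chr17:77765931-77775482, minus strand) had a TPM of 17.3 and 14.9 (mean 16.1 ± 1.69) from 200 and 169 counts. CBX7 (chr22:39516172-39548685, minus strand), known as the main chromobox of embryonic stem cells, had a TPM of 5.27 and 4.77 (mean 5.02 ± 0.354) from 98 counts in each replicate. The order CBX2 over CBX8 over CBX7 held in both replicates, with CBX2 at 2.21 and 2.33 times CBX8 and CBX8 at 3.28 and 3.12 times CBX7. The last ratio depended on the scale, since CBX8 was 2.62 and 2.35 times CBX7 with the posterior mean and 2.04 and 1.72 times in counts.

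CBX6, a less studied chromobox gene of canonical PRC1, was higher than these 3 genes in HEK293T cells. Its TPM was 117 and 111, or 3.06 and 3.21 times that of CBX2, and it held 65.8% and 67.2% of the summed TPM of CBX2, CBX6, CBX7 and CBX8. Within this sum CBX2 held 21.5% and 20.9%, CBX8 held a mean of 9.36% ± 0.517 (SD, n = 2), and CBX7 held 2.97% and 2.88%. Together CBX2, CBX7 and CBX8 made up 33.5% ± 0.993 (SD, n = 2), and in counts, which are not scaled by length, 25.5% and 24.7%. All of these shares are of the named genes alone and not of the whole chromobox family. CBX2 and CBX8 are neighbours on chromosome 17 with 4148 bases between them, while CBX6 and CBX7 both lie on chromosome 22.

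For CBX7 the low counts limit the precision. The 98 counts correspond to 9.25 CPM (counts scaled to the library total) with an exact 95% binomial interval of 7.51 to 11.3 in replicate 1, and to 9.70 CPM with an interval of 7.87 to 11.8 in replicate 2. Such intervals hold for counting error alone, because PCR can turn 1 molecule into several reads. The pseudogene COX5BP7 lies within a CBX7 exon, and all of its 225 stretches of 50 bases are also in CBX7, but it had 0 counts in both replicates. An unnamed long noncoding RNA on the opposite strand covers 1338 of 7467 exonic bases of CBX7 in the annotation, and another covers 221 of 6995 of EED. Neither of these noncoding RNAs had a row, so neither could receive counts or enter the comparison of stretches. The sources used here do not give the strand setting of the counting, and without strand reads of such partners cannot be told apart.

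In order of mean TPM the 9 genes were BMI1, EZH2, RNF2, CBX2, SUZ12, EED, EZH1, CBX8 and CBX7. Neighbours whose ranges over the replicates overlapped were BMI1 and EZH2, and EZH1 and CBX8, so their order did not exceed the spread. The closest of the separate neighbours were CBX2 and SUZ12, where the lowest value of CBX2 was 34.7 and the highest of SUZ12 was 33.2. With 2 replicates no exact test of such an order could reach 0.05.

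RNA levels of the partner genes were examined to place the 9 genes within their complexes. Of 30 other genes of PRC1 and PRC2 that were listed, 28 had a row, since EPOP was not matched either, and 27 of these were detected. The exception was EZHIP, an inhibitor of EZH2 that is normally found in germ cells, with a TPM of 0.50 and 0.82 from 7 and 11 counts. The median of the mean TPM over the 28 genes was 31.9, beside 32.1 over the 9 genes.

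**Figure D2:**
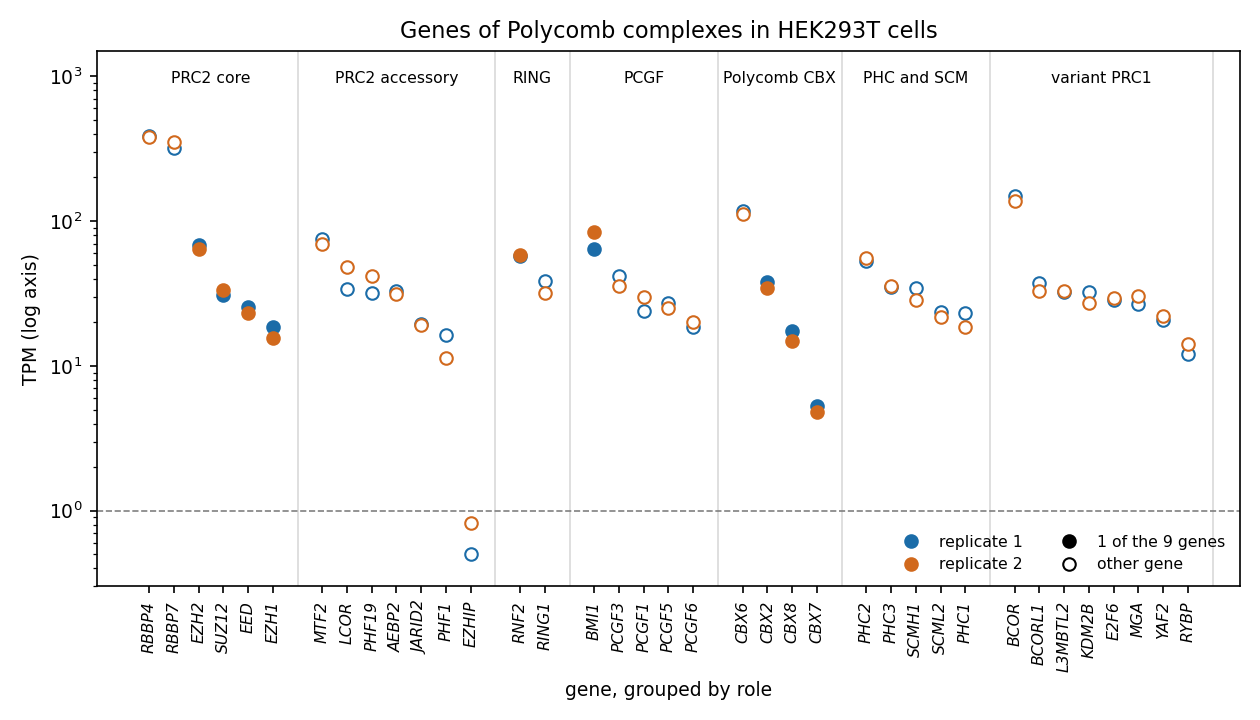
TPM on a log axis (y axis) of the 9 genes (filled) and of 28 other genes of PRC1 and PRC2 (open) grouped by role (x axis), in replicate 1 (blue) and replicate 2 (orange), with a dashed line at a TPM of 1. EZH2, RNF2 and BMI1 exceeded their listed relatives in mean TPM, CBX2 lay below CBX6, and EZHIP alone lay below the line.

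The histone-binding subunits RBBP4 and RBBP7, which PRC2 shares with several other chromatin complexes, had a TPM of 385 and 379 and of 319 and 353. They were 15.7 ± 0.769 and 13.9 ± 1.84 times as high as EED. Among the accessory subunits that direct PRC2 to DNA, MTF2 was the highest with a TPM of 75.6 and 69.5, which is above EZH2 in both replicates. JARID2, another guide of PRC2, had a TPM of 19.5 and 19.2, and AEBP2 had 32.9 and 31.6, close to SUZ12. In variant PRC1, BCOR had a TPM of 149 and 139, above all 9 genes, whereas RYBP had 12.2 and 14.2, below 8 of them.

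The libraries were compared gene by gene to learn which levels depended on the replicate. Counts were tested against the TMM-scaled library sizes by an exact two-sided binomial test with Benjamini-Hochberg adjustment over 17920 genes, which compares these libraries and not conditions. Its p-values cover counting error only, and take in neither PCR duplicates nor the posterior SD of a count. Among the 9 genes 1 was called at an adjusted p under 0.05, beside 3.88% of all genes tested. BMI1 was higher in replicate 2 by 0.39 on the log2 scale (adjusted p = 4.24e-06, exact binomial test). CBX2 was lower in replicate 2 by a log2 ratio of -0.15 and did not pass (p = 0.0118 before and 0.165 after adjustment, exact binomial test). The other 7 genes had log2 count ratios between -0.16 for CBX8 and 0.15 for RNF2 and did not pass.

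The difference in BMI1 went with one in the opposite direction in COMMD3-BMI1. For the read-through gene 274.61 counts were estimated in replicate 1 and 163.26 in replicate 2, each with a posterior SD of 29.8, and its log2 ratio was -0.67 (adjusted p = 0.000169, exact binomial test). The 2 genes together had 1043.16 and 1117.71 counts, a log2 ratio of 0.18 that did not pass (p = 0.0042 before and 0.0846 after adjustment, exact binomial test over 17919 genes). This sum was added after the data were seen. COMMD3 itself had 122.83 and 117.29 counts with a log2 ratio of 0.01. How the sharing of reads contributed to the difference in BMI1 was not tested beyond this sum. SUZ12 and SUZ12P1 together had 1261.79 and 1194.28 counts, a log2 ratio of -0.0013.

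**Figure D3:**
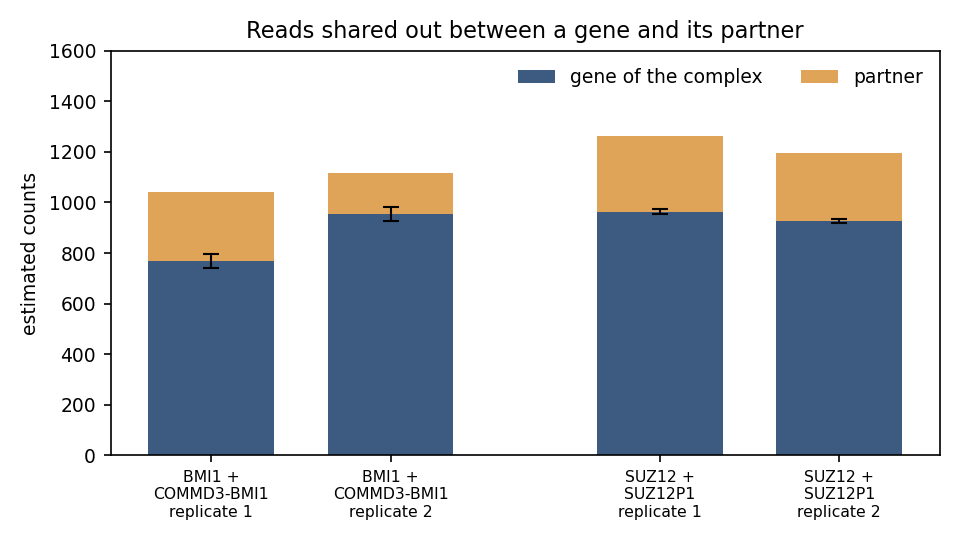
Estimated counts (y axis, from 0) of BMI1 and SUZ12 (blue, with the posterior SD as an error bar) stacked with those of COMMD3-BMI1 and SUZ12P1 (yellow) in each replicate. BMI1 had 768.55 and 954.45 counts in replicates 1 and 2, and its stacked totals were 1043.16 and 1117.71.

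The remaining genes show how far TPM and counts can part. The log2 ratio of replicate 2 over replicate 1 in CBX7 was 0.08 in counts and -0.14 in TPM, and its assigned lengths were 2543.08 and 2906.91 bases. In EZH1 the ratio was -0.02 in counts and -0.25 in TPM. In RNF2 it was 0.15 in counts and 0.01 in TPM, with lengths of 1508.97 and 1630.68. Of the 9 genes the median size of the log2 TPM ratio was 0.142, beside 0.156 over all detected genes. Over detected genes in the count range of the 9 it was 0.130, and over detected protein-coding genes 0.135. The median size of the log2 count ratio was 0.078 for the 9, beside 0.112, 0.0919 and 0.0950 in the same order.

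**Figure D4:**
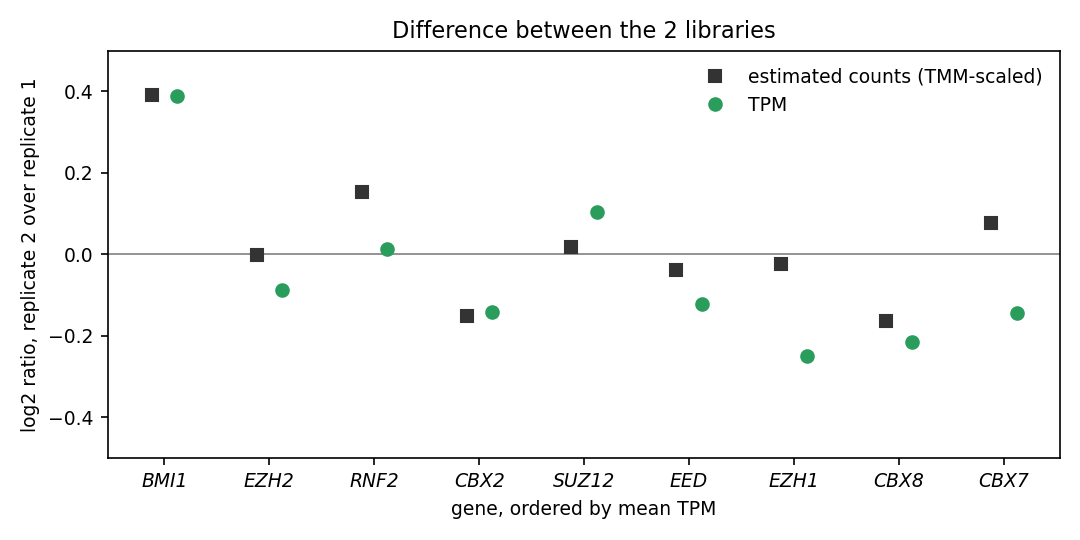
Log2 ratio of replicate 2 over replicate 1 (y axis) for each of the 9 genes (x axis), from TMM-scaled estimated counts (black squares) and from TPM (green circles). BMI1 lay at 0.39 on both scales, and the other genes lay between -0.25 (EZH1 in TPM) and 0.15 (RNF2 in counts).

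Among the 28 other genes of the complexes 2 were called between the libraries, beside 3.88% of all genes tested. Both were higher in replicate 2 in counts, as were 384 of the 696 called over all genes. MTF2 had a log2 count ratio of 0.23 (adjusted p = 0.0139, exact binomial test), although its log2 TPM ratio was -0.12. RYBP had a log2 count ratio of 0.25 (adjusted p = 0.0346, exact binomial test) and a log2 TPM ratio of 0.22.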

How the data were processed

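Poly(A)+ RNA of 2 replicates of untreated HEK293T cells was sequenced in reads of 50 bases. The submitters' processing notes name Trimmomatic 0.36, STAR 2.6.1c and RSEM 1.3.1 with GRCh37, whereas the study's methods name featureCounts. The columns are those of RSEM. Expected counts, TPM and FPKM values were deposited by the authors, with the posterior SD of a count and TPM interval bounds as scores deposited by the authors. RSEM divides a read that matches several genes between them. A table of the pooled reads of both libraries was used only to compare counts, and for 7 of the 9 genes its count equalled the sum within 1 count.

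Symbols and coordinates were taken from GENCODE 44 in its GRCh37 version (96.1% of gene identifiers matched). Both samples formed 1 group. Counts were rounded, scaled with TMM factors (edgeR 4.0.16, R 4.3.3) and tested by an exact binomial test (scipy 1.17.1) over genes whose counts summed to 10 or more. The test was checked on simulated data. Detection required both replicates to reach a TPM of 1. Stretches of 50 bases were compared over 93.1% of the transcripts in the tables (77 of 80 of the 9 genes), those with sequence in GENCODE. Alternatives were other thresholds and units, RLE and total-count scaling, a lower filter, posterior means, pseudocounts and leaving out each replicate. The genes and lists were chosen with earlier results of these data known. Genes named were the 9, the listed genes, pseudogene copies of the 9 and genes overlapping their exons, plus COMMD3, which was added as the neighbour of BMI1. A listed gene is not reported here.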

Additional observations from a re-analysis of the deposited data

How the results depend on the processing

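All 9 genes were detected with every threshold and unit except a TPM of at least 5, which left 8, without CBX7, and 27 of the other Polycomb genes were detected with every one except a TPM of at least 0.1, which gave 28. One of the 9 genes was called between the libraries under TMM, RLE and total-count scaling, with a lower filter and with posterior mean counts. The log2 ratio of EZH2 to EZH1 was 1.97 in TPM, 1.81 in CPM and 1.52 in TPM from the posterior mean. The share of CBX2, CBX7 and CBX8 in the sum of these and CBX6 was 33.5% in TPM, 25.1% in estimated counts and 34.8% in TPM from the posterior mean. By CPM 3 of the 9 genes kept their place in the order. Leaving out each replicate gave 9 to 9 of the 9 genes detected, 27 to 27 of the other genes, a log2 ratio of EZH2 to EZH1 from 1.89 to 2.05, a chromobox share from 32.8% to 34.2%, and 7 to 9 genes in place, where BMI1 and EZH2 changed places without replicate 2. The call of BMI1 was lost when its counts were added to those of COMMD3-BMI1 (log2 ratio of 0.18, adjusted p = 0.0846, exact binomial test), an alternative chosen after seeing the data. No paired analysis was possible because both samples form 1 group. The number of counts limits CBX7 most among the 9 genes, and 2 replicates give only a rough SD.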

Other observations

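Genes that Polycomb complexes are known to silence in other cell types had levels from 0 counts to a TPM of 308 in HEK293T cells. Of 12 listed, 8 (66.7%) were detected, beside 63.7% of all protein-coding genes. CDKN2A, whose products restrain the cell cycle and which is a textbook target of BMI1, had a TPM of 308 and 298, above all 9 Polycomb genes. Its neighbour CDKN2B, also an inhibitor of the cell cycle, had a TPM of 6.65 and 6.96. CCND2, a cyclin, had a TPM of 67.8 and 66.8, and the developmental transcription factors GATA4 and GATA6 had 29.3 and 26.2 and 31.3 and 30.5. By contrast SOX17, an endoderm factor, had 0 counts in both replicates. Factors of nerve and muscle development were not all low. NEUROG1, NEUROG2 and PAX7 had a TPM below 1 in both replicates. PAX3 had a TPM of 11.8 and 14.5, and MYT1 was detected with a TPM just above 1. No histone mark was measured here, so these levels say nothing of which genes carry one.

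All 8 listed genes of enzymes that oppose Polycomb were detected. The demethylases KDM6A and KDM6B, which remove the mark of PRC2, had a TPM of 31.6 and 36.4 and of 15.9 and 15.4. BAP1, the enzyme that removes the ubiquitin placed by PRC1, had a TPM of 85.7 and 86.0, above EZH2 in both replicates, and its partner ASXL1 had 53.5 and 50.4. KMT2B had a posterior SD of 267 and 258 counts on counts of 604.43 and 527.66, so its level is uncertain. The HP1 chromobox genes CBX1, CBX3 and CBX5, which bind another histone mark, had a mean TPM of 86.5, 173 and 72.8. Of these genes CBX3 alone was called between the libraries (log2 count ratio of 0.18, adjusted p = 0.00817, exact binomial test), beside 3.88% of all genes tested. It was higher in replicate 2.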
